A study of Mus musculus with 2 samples.

Results

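The genes described here are the chemosensory and related G protein-coupled receptors of the mouse that fall outside the large olfactory and vomeronasal families: sweet and umami taste receptors (Tas1r), bitter taste receptors (Tas2r), trace amine-associated receptors (Taar), Mas-related receptors (Mrgpr) and formyl peptide receptors (Fpr). They were chosen by symbol from the RefSeq protein-coding genes of the mouse genome mm10. The rule uses no measured value, though earlier results of these data were known when it was set. The rule found 80 genes, 3 Tas1r, 35 Tas2r, 15 Taar, 20 Mrgpr and 7 Fpr, and all of them had a replication timing score, out of 21225 protein-coding genes with one. To map early and late replicating regions, the study set 1 library of an early S phase fraction against 1 of a late S phase fraction. Both fractions came from the same mouse line, 46C (strain 129P2/Ola), grown as embryonic stem cells with leukemia inhibitory factor with 50 µM bromodeoxyuridine (BrdU) in the medium for the last 2 h. BrdU is built into new DNA in place of thymidine. The cells were sorted by DNA content, and an antibody to BrdU recovered the labelled DNA of 10000 cells, which was amplified before sequencing. The deposited value is 1 score per genomic position, made by the authors from both libraries and smoothed over 300 kb, and a gene takes the score of the position nearest to its midpoint. Positive scores are taken as early, an assumption that rests on the wording of the table's name. Without replicate libraries or read counts the depth is unknown, the error between experiments cannot be stated and no test was run. No source used here gives the log base or the zero point, so a score is never turned into a fold. The score carries no expression, so the cell type could not be checked against its markers.

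Replication timing is the order in which chromosomal regions are copied during S phase. Neighbouring origins fire together, so that timing is shared over domains far longer than a gene, and in many cell types active, gene-rich chromatin is copied early and lamina-associated chromatin late. The receptors described here detect tastants, volatile amines, pruritogens and bacterial peptides in taste cells, sensory neurons, mast cells and leukocytes. Embryonic stem cells are not among the cells in which they are known to act. Many of these families grew by tandem duplication, so that most members sit beside close relatives.

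The receptor genes were mostly late, and the families differed in where they lay. Of the 80 genes 68 (85.0%) lay below 0, while 26.5% of all protein-coding genes did. With zero at the autosomal median, which is -0.30, 54 of the 80 lay below it, and 21.5% of all protein-coding genes. The median score of the 80 genes was -0.77 (quartiles -1.30 and -0.24), against 1.02 (quartiles -0.082 and 1.52) for all protein-coding genes. All 35 bitter receptor genes were late, and all 3 sweet and umami receptor genes were early. The Taar genes lay close to 0, with 13 of 15 below it. The Mrgpr and Fpr families held both kinds, with 15 of 20 and 5 of 7 genes below 0. Scores below -1 were found for 34 of the 80 genes, 21 Tas2r, 9 Mrgpr and 4 Fpr, and for 9.59% of protein-coding genes. The genes are not independent measurements, since 72 of them lay within 300 kb, the smoothing width, of another member.

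**Figure D1:**
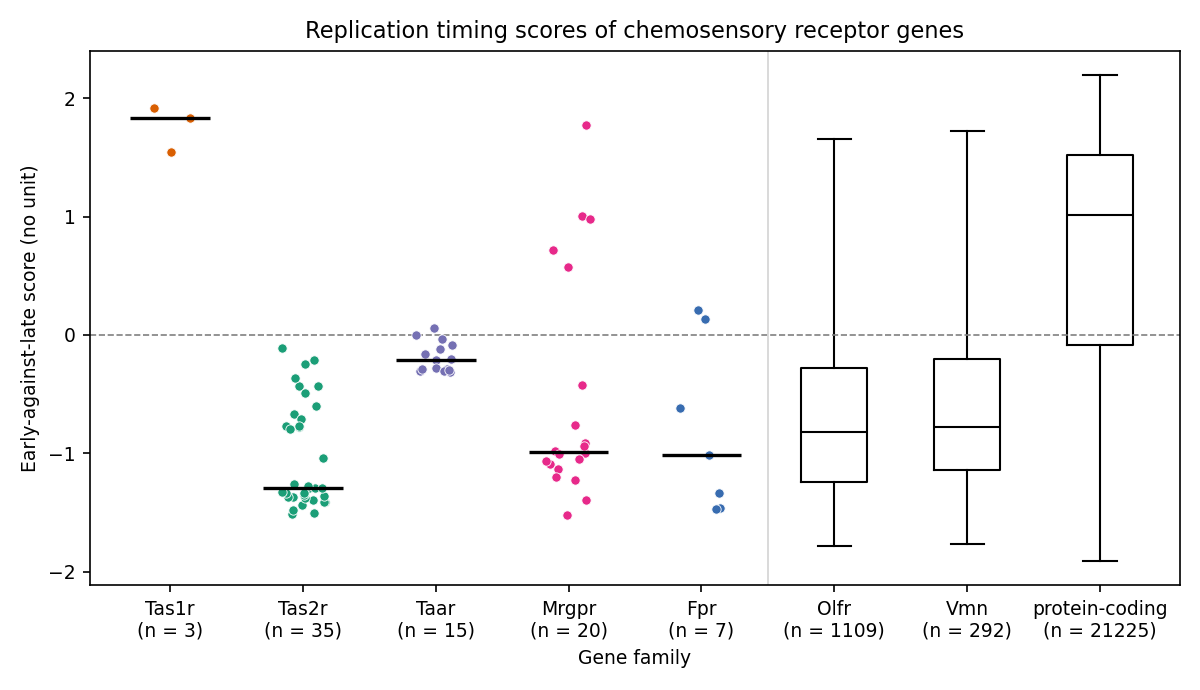
Early-against-late score (vertical axis, no unit, positive early) of each receptor gene by family (coloured points, black bar the median), with the Olfr, Vmn and all protein-coding genes as boxes (line the median, box the quartiles, whiskers the lowest and highest gene). All Tas1r points lie above 1.5, all Tas2r points lie below 0, the Taar points lie within 0.5 of 0, and the Mrgpr points form a late and an early set.

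With members at most 1 Mb apart joined, the 80 genes formed 16 units: 7 clusters of 3 or more genes, 2 pairs and 7 single genes. The 7 clusters held 69 genes, and 65 of them lay below 0. Of the 11 genes outside these clusters 8 lay above 0. Counted by unit, 10 had a median below 0 and 6 a median above it, so the late share was smaller by unit than by gene. The median over 1 mean value per unit was -0.30. Of all score positions of the genome 56.9% lay below 0, with a median of -0.33. Counted by unit, the members thus had a median close to that of the genome's positions, though the unit medians ran from -1.46 to 1.92. All protein-coding genes were not counted by unit.

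The Tas1r genes encode the subunits of the sweet receptor (Tas1r2 with Tas1r3) and of the umami receptor (Tas1r1 with Tas1r3), and all 3 lie on chromosome 4. Tas1r3 (155859268 to 155863353) had a score of 1.92, which 99.3% of protein-coding genes lay below. Tas1r1 (152027914 to 152038490) had 1.83 and Tas1r2 (139653538 to 139670280) had 1.54, above 97.3% and 77.0% of protein-coding genes. The genes lay in 3 separate early runs of 1.67, 1.12 and 10.8 Mb, so that unlike most of the other members they do not share a smoothing window. The run of Tas1r3 stops at the last score position of chromosome 4, 319 kb beyond the gene, and not at a change of sign. The surroundings of the Tas1r genes were early and held no other member. Within 0.5 Mb there were 41 other protein-coding genes around Tas1r3, 19 around Tas1r1 and 11 around Tas1r2, and none of these lay below 0. The highest neighbour of Tas1r3 was Ints11, a subunit gene of the Integrator complex that processes small nuclear RNAs, at 1.92. The lowest neighbour of Tas1r2 was Pax7, a transcription factor gene of muscle precursors, at 0.89.

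The Tas2r genes encode bitter receptors, mostly from a single coding exon. Their median score was -1.29 (quartiles -1.37 and -0.69) and the range -1.51 to -0.11. They fell into 3 clusters on chromosome 6, with 32 genes, and 3 single genes. The distal cluster (131629892 to 133055793) held 24 genes, with a median of -1.34, in a late run of 2.43 Mb. Its lowest gene was Tas2r120 at -1.51, which only 1.07% of protein-coding genes lay below, and its highest was Tas2r130 at -0.60. The cluster divided into 2 blocks that did not overlap in score. The 6 genes from Tas2r130 to Tas2r114 lay between -0.79 and -0.60 (median -0.74), and the 18 genes from Tas2r120 to Tas2r140 lay between -1.51 and -1.28 (median -1.37). Tas2r114 and Tas2r120, at the facing ends of the blocks, took their scores 966 kb apart, and 48.0% of position pairs of the genome at that distance differ by as much. Tas2r105, the mouse cycloheximide receptor, lies in the first block at -0.76 and took its score from the same position as Tas2r104. Between the blocks sit 7 other protein-coding genes, all below 0, from Gm8882 at -1.40 to the salivary proline-rich protein gene Prh1 at -1.07. Prb1 and Prp2, of the same protein group, had -1.25 and -1.28.

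The 2 proximal Tas2r clusters on chromosome 6 were less late. Tas2r137 and Tas2r108 shared 1 position at -0.43, and Tas2r138, 121 kb further, had -0.78 (40491238 to 40613310). Tas2r138 is the mouse counterpart of the human phenylthiocarbamide receptor. In the next cluster (42140936 to 42435461) Tas2r139 had -0.49, Tas2r144 -0.11, Tas2r143 -0.21, Tas2r135 -0.24 and Tas2r126 -0.37. These 5 genes lay on both sides of a small peak that reached 0.037 at its top, and 7 other genes lay inside the cluster. The highest of the 7 was the chloride channel gene Clcn1 at 0.033 and the lowest the ephrin receptor gene Epha1 at -0.071. The zero point decides how this cluster is called: with zero at the autosomal median, which is -0.30, 2 of the 5 genes lay below it and the median was 0.062. Of the whole family 32 of 35 then lay below.

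The single Tas2r genes were all clearly late. Tas2r119 on chromosome 15 (32177289 to 32178294) had -1.34, Tas2r118 on chromosome 6 (23969161 to 23970060) had -1.26 and Tas2r134 on chromosome 2 (51627511 to 51628407) had -1.04. Tas2r119 had 1 other protein-coding gene within 0.5 Mb, the axon guidance gene Sema5a, at -1.50. Tas2r134 differed from the genes around it. All 5 genes within 0.5 Mb of it were early, from the small GTPase gene Rnd3 at 0.23 to the hyaluronan-binding protein gene Tnfaip6 at 1.39, and the late run that held Tas2r134 was 0.563 Mb long. The flank medians over 0.5 Mb were -0.65 on the lower-coordinate side and 0.66 on the other.

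The Taar genes encode receptors for biogenic and volatile amines. Taar1 is known from monoaminergic neurons, while the other mouse Taar genes are known from olfactory neurons. All 15 lie in 1 cluster of 189 kb on chromosome 10 (23920406 to 24109534), shorter than the smoothing width, and changed in score along it without a break. In coordinate order the scores were 0.061 for Taar1, 0.0028 for Taar2, -0.038 for Taar3, -0.083 for Taar4 and -0.12 for Taar5, the mouse trimethylamine receptor. They went on with -0.16 for Taar6, -0.20 for Taar7a, -0.22 for Taar7b, -0.28 for Taar7d and -0.29 for Taar7e. Taar7f had -0.31 and Taar8a -0.31, the lowest, and Taar8b, Taar8c and Taar9 had -0.30, -0.30 and -0.29. The range over the family was only 0.37, against 1.40 over the Tas2r genes. A difference as large as that between Taar1 and Taar8a was found in 38.0% of position pairs of the genome at the same distance, so the slope was an ordinary one.

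The Taar cluster lay near the border of early and late, and how it compared with its flanks depended on their width. The 0.5 Mb on its lower-coordinate side had a median of 0.10 and the 0.5 Mb on the other side 0.17, both higher than the cluster median of -0.22. Over 1 Mb the lower-coordinate side had -1.11, well below the cluster, and the other side 0.53. Its neighbours on the lower-coordinate side, the pantetheinase genes Vnn1 (0.13) and Vnn3 (0.22), were slightly early, and Stx7, a syntaxin gene on the other side, had -0.22. With zero at the autosomal median, 2 of the 15 genes, Taar7f and Taar8a, lay below it and the median was 0.089, so whether the family is called early or late depends on the zero point.

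The Mrgpr genes encode Mas-related receptors of sensory neurons and mast cells, and they divided by place. The 15 genes of the tandem cluster on chromosome 7 (47234919 to 48643801) all lay below 0, with a median of -1.05. The 5 genes elsewhere all lay above 0, with a median of 0.98. The latest was Mrgprx1 at -1.52 (48020971 to 48027597). This is the mouse gene also called MrgC11, a receptor for the opioid-derived itch peptide BAM8-22 in sensory neurons. Mrgpra3, the mouse chloroquine receptor of itch neurons, had -0.91, and Mrgprb2, the mouse mast cell receptor for basic peptides and drugs, had -1.20. The gene named Mrgprx2 in the mouse table is also called Mrgprb10 and had -1.003. Mrgprb4, known from neurons that respond to stroking, had -1.07. By subfamily the medians were -0.99 for 6 Mrgpra genes and -1.07 for 7 Mrgprb genes, with overlapping ranges.

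Along the tandem cluster the 2 ends were least late. Mrgpra9, at the lower-coordinate end, had -0.42 and lay 45.9 kb from the edge of the late run, and Mrgprb3, at the other end, had -0.76. Between Mrgpra9 and Mrgpra1 (-0.98), 104 kb apart, the score differed by 0.56, a step that 11.3% of genome pairs at that distance reach. The late run of 1.58 Mb fitted the gene cluster closely, as the cluster itself spans 1.41 Mb. Of the protein-coding genes in that span only 1, the uncharacterised Gm51464 at -1.28, was no Mrgpr gene.

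Of the flanks of the tandem cluster the lower-coordinate one was early and the other lay close to 0. The median of the 0.5 Mb on the lower-coordinate side was 1.18, so the cluster median lay 2.23 below it, the widest gap among the 7 clusters of 3 or more genes. On the other side the flank median was 0.057. On the lower-coordinate side the lactate dehydrogenase gene Ldhc had 1.74 and the endosomal sorting gene Tsg101 1.74. The serum amyloid genes Saa1, Saa2 and Saa3, a group that includes the gene of a known FPR2 ligand in human, had 1.42, 1.41 and 1.43. On the higher-coordinate side the first gene was the palmitoyltransferase gene Zdhhc13, at 0.049.

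Positions were sparse in parts of the tandem cluster. The largest gap between neighbouring positions there was 57.5 kb, against a median spacing of 5.78 kb in the genome. The score of Mrgpra2b (-0.998) came from 18.4 kb away, that of Mrgprb3 from 13.1 kb and that of Mrgprx2 from 5.21 kb, the only 3 members over 5 kb from their position. Mrgpra2b and its neighbour Mrgpra2a (-1.09) are close copies: their RefSeq start windows of 300 bases had 0 differences. Reads from such copies may have no unique place, and how they were treated is not given in the sources used here.

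The Mrgpr genes outside the tandem cluster lie at 3 places. Mrgprh on chromosome 17 (12876034 to 12877842) had 1.78, above 94.8% of protein-coding genes, and its neighbour 22.5 kb away, Mas1, the receptor gene that gave the family its name, had 1.84. Mrgprg had 1.00 and Mrgpre 0.98, a pair on chromosome 7 (143763710 to 143784500) in an early run of 2.53 Mb. Mrgprf and Mrgprd, a second pair near the end of chromosome 7 (145300909 to 145324059), had 0.72 and 0.57, and Mrgprd, the mouse beta-alanine receptor of skin nociceptors, was the lowest of the 5. The growth factor gene Fgf15 within 0.5 Mb of that pair had 1.43. The score positions of chromosome 7 end inside Mrgprd, so nothing beyond it was measured. The run of 2.53 Mb holds both pairs and is cut there.

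The sequences before the annotated starts of 6 Mrgpr genes are shown because they belong to 1 family and to opposite timing. Each is the 200 bases just before the RefSeq start (GRCm38.p6, 5′ to 3′ on the gene's strand), in lower case with CG dinucleotides in capitals. Mrgprh (chr17:12875834-12876033, plus strand), Mrgpre (chr7:143784501-143784700, minus strand) and Mrgprd (chr7:145314635-145314834, plus strand) are early. Mrgprx1 (chr7:48027598-48027797, minus strand), Mrgprb2 (chr7:48558087-48558286, minus strand) and Mrgpra1 (chr7:47354241-47354440, minus strand) are late.
Mrgprh: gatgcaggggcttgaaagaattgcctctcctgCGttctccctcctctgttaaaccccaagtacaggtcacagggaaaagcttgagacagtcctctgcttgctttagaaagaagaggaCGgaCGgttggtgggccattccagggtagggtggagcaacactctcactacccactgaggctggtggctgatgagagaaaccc
Mrgpre: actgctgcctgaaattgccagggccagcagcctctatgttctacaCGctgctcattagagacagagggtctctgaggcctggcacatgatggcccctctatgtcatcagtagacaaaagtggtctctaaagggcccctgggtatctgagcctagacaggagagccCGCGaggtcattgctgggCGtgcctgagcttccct
Mrgprd: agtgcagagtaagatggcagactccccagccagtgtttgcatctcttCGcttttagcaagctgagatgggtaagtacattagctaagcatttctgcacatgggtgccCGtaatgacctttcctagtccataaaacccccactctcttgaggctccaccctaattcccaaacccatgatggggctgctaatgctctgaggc
Mrgprx1: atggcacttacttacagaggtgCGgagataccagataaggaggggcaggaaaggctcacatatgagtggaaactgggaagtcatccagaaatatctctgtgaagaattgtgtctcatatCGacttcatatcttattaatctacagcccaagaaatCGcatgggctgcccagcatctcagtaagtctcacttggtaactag
Mrgprb2: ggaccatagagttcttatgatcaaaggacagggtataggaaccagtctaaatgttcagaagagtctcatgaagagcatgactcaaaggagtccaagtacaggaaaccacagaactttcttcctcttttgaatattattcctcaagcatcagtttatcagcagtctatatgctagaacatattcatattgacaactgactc
Mrgpra1: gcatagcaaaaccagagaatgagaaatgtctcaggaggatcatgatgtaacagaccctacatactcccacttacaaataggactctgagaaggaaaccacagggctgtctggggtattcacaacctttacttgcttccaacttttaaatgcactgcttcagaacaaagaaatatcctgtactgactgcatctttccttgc
The 3 early stretches held 3, 4 and 2 CG dinucleotides and had G + C of 54.0%, 56.5% and 50.0%. The 3 late stretches held 3, 0 and 0 and had 44.5%, 38.5% and 42.5%. CG number thus overlapped between early and late in this small set, and G + C did not. The 3 late genes share the late run of the tandem cluster, and Mrgpre and Mrgprd share an early run, so these are not separate cases. Among all protein-coding genes, read over a longer window before the start, G + C did overlap. The share with 50% or more was 81.8% above a score of 0.5 and 44.7% at or below it.

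The Fpr genes encode receptors for formylated bacterial and mitochondrial peptides. Fpr1 and Fpr2 are known from neutrophils, and Fpr-rs3, Fpr-rs4, Fpr-rs6 and Fpr-rs7 from vomeronasal neurons of the mouse. All 7 lie on chromosome 17, in 2 clusters. In the first (17876471 to 18022704) the scores in coordinate order were 0.21 for Fpr1, 0.14 for Fpr2, -0.61 for Fpr3 and -1.02 for Fpr-rs4. The cluster lay across a timing border, and the sign changed between Fpr2 and Fpr3. Fpr1 and Fpr-rs4 differed by 1.22 over 144 kb, a step that 0.824% of 344646 position pairs of the genome at that distance (within 10 kb) reached, and Fpr2 and Fpr3 differed by 0.75 over 80.6 kb, which 1.02% reached. These pairs were chosen after their scores were seen. Because the smoothing is wider than the cluster, the border could be sharper than the table shows.

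The genes beside this cluster differed in the same way on its 2 sides. On the lower-coordinate side Has1, a hyaluronan synthase gene, had 0.38 and the sperm gene Spaca6 0.43, and the flank median over 0.5 Mb was 0.99. On the other side the vomeronasal receptor gene Vmn2r124 had -1.13, and the flank median was -1.14. Of the 13 other genes within 0.5 Mb 7 lay below 0, all on the higher-coordinate side, and all but Gm29986 (-1.40) were Vmn genes. The one Vmn gene on the lower-coordinate side, Vmn2r90, lay above 0 at 0.85.

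The second Fpr cluster (20113210 to 20624877) was late throughout. Fpr-rs7 had -1.46, Fpr-rs6 -1.47 and Fpr-rs3 -1.33, in a late run of 3.39 Mb. Inside its span were 8 other protein-coding genes, all of them Vmn genes and all below 0, from Vmn1r225 at -1.44 to Vmn2r106 at -1.08. The 4 Fpr-rs genes had scores of -1.02 and lower, and Fpr1 and Fpr2, the neutrophil receptors, were the only Fpr genes above 0.

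**Figure D2:**
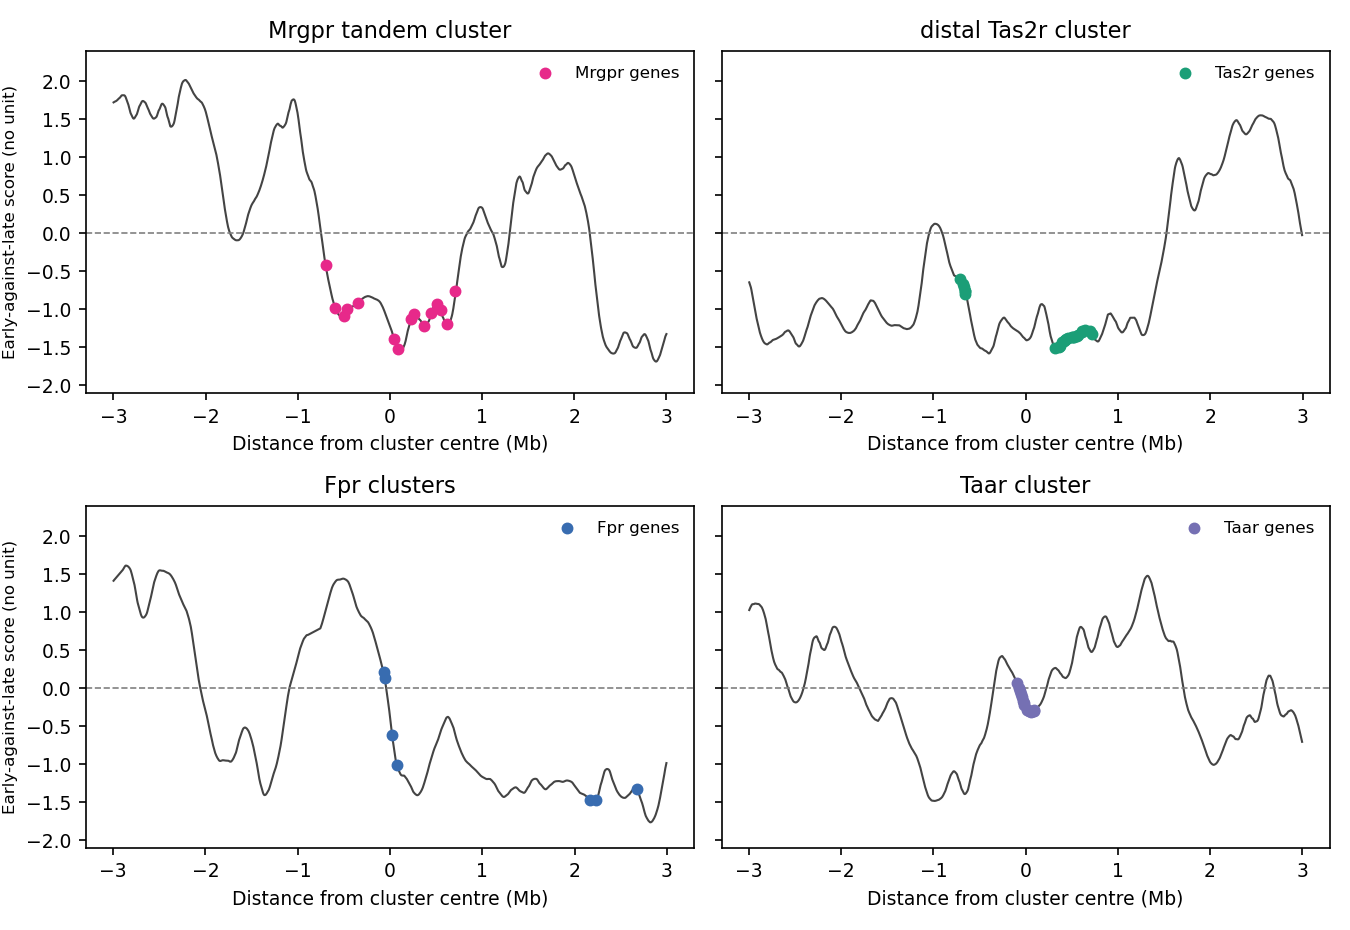
Early-against-late score (vertical axis, no unit) along 3 Mb on each side of the centre of 4 clusters (horizontal axis, Mb), with the receptor genes as coloured points. The Mrgpr genes fill a trough between higher flanks, and the Tas2r genes lie in a long late stretch in 2 blocks. The first Fpr genes lie on a steep slope with a later set at the right, and the Taar genes lie in a shallow dip near 0.

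Set against their flanks, the clusters took 3 forms. The Mrgpr tandem cluster was lower than both 0.5 Mb flanks, by 2.23 and 1.10, and the Taar cluster was lower than both by 0.32 and 0.38. For Taar the first of these differences was -0.039 with means, and with a 1 Mb flank the cluster lay 0.90 above it. The Tas2r cluster from Tas2r139 to Tas2r126 was higher than both of its late flanks, by 0.96 and 1.03, though its genes were below 0. The Tas2r137 to Tas2r138 cluster was 0.15 lower than its lower-coordinate flank and 0.92 higher than the other. Both sides differed most at Fpr1 to Fpr-rs4, with 0.99 on one side and -1.14 on the other. The distal Tas2r cluster was 1.21 lower than its lower-coordinate flank (median -0.14) and 0.072 lower than the other (median -1.27). The last of these differences turned to 0.045 with means in place of medians, so it has no stable sign. The Fpr-rs7 to Fpr-rs3 cluster was 0.20 and 0.13 lower than its flanks, which were late as well. With a flank of 1 Mb the signs of the other differences were kept.

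**Figure D3:**
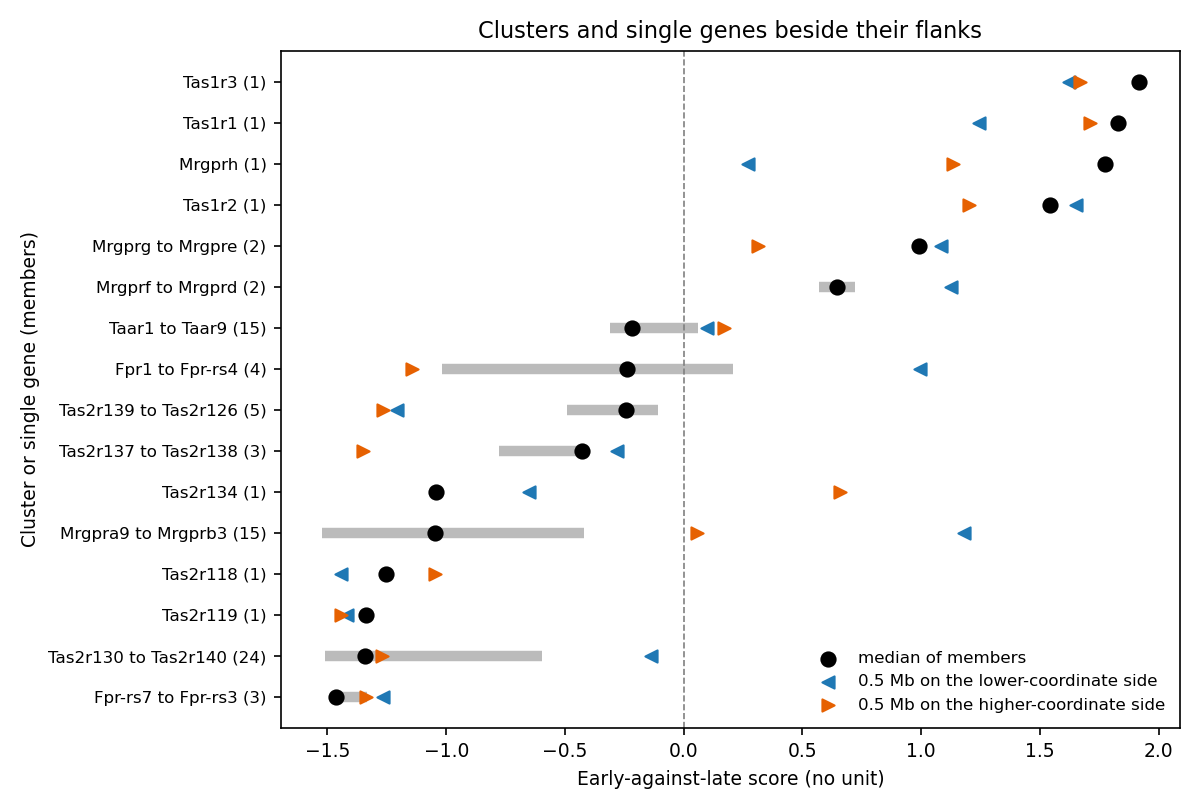
Median score of the members of each cluster or single gene (black point, grey bar from the lowest to the highest member; number of genes in brackets) and of the 0.5 Mb on its lower-coordinate and higher-coordinate sides (triangles), on the score axis (no unit). The Mrgpra9 to Mrgprb3 cluster lies at -1.05, left of flanks at 1.18 and 0.057. Score positions end 319 kb beyond Tas1r3, so its higher-coordinate side is shorter, and inside Mrgprd, which has no such side.

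The olfactory (Olfr) and vomeronasal (Vmn) receptor genes, the nearest families in function, had medians close to that of the 80 genes when counted by gene, and less so when counted by cluster. The 80 genes had a median of -0.77 with 85.0% below 0, the 1109 Olfr genes a median of -0.82 with 81.9% below 0, and the 292 Vmn genes a median of -0.78 with 82.9% below 0. The Tas2r genes, with a median of -1.29, were later than both medians. Tas1r3 and Tas1r1, at 1.92 and 1.83, were above the highest Olfr gene at 1.66 and the highest Vmn gene at 1.72. With 1 mean value per cluster or single gene the median was -0.30 over 16 member units, -0.028 over 49 Olfr units and -0.48 over 28 Vmn units. No test of these differences was run, as the genes of a cluster share their score.

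The number of genes around a member did not go with its score. Members had a median of 19.5 other protein-coding genes within 0.5 Mb on each side, and protein-coding genes as a whole had 15. Across the 80 members Spearman's rho between this number and the score was -0.062, and across all 21225 protein-coding genes it was 0.44. Both are descriptions across genes of 1 pair of libraries, and members of a cluster share both neighbours and score. The Tas2r genes had a median of 22 genes around them, of which a median of 6 were no members, and the Mrgpr genes had 10.5, of which 4 were no members. The Taar genes had 20, of which 6 were no members, and the Fpr genes 14, of which 11 were no members. Mrgpr and Fpr genes thus had fewer genes around them than the 15 of all protein-coding genes.

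The base composition before the annotated start was described in the same way. Spearman's rho between its G + C and the score was 0.51 over 69 members, against 0.38 over 17030 protein-coding genes. Over the 62 members scored at or below 0.5 it was 0.32, against 0.33 over all protein-coding genes at or below 0.5. The value over all members was thus lower without the 7 early genes. Within the 31 Tas2r windows, all of genes scored below 0, it was 0.67. Tas2r was the only family for which it was computed. Genes of a cluster share their score, and these are descriptions across genes. RefSeq start windows were found for 69 of the 80 genes, and the 250 bases before the start were read. In 47 of the 69 the annotated start was an ATG, so these gene models begin at the start codon and the window is not a mapped promoter. All 47 were among the 62 genes scored at or below 0.5, and 0 among the 7 above it. The 2 sets thus differ in the kind of window, and what this does to base composition was not tested. Of the 17030 protein-coding genes 1453 had such a start. The median G + C was 38.0% over the 69 genes, against 55.6% over 17030 protein-coding genes. In the 7 genes scored above 0.5, all Tas1r or Mrgpr, it was 50.0 to 57.2%. Of the 62 other genes only 1, Tas2r126 at 51.2%, reached 50%. Among all protein-coding genes the share with 50% or more was 81.8% above a score of 0.5 and 44.7% at or below it. No CG dinucleotide was found in 25 of the 69 windows (36.2%), against 7.02% over protein-coding genes and 15.6% over those scored at or below 0.5. The motif TATAAA, searched on both strands, was found in 19 of 69 (27.5%), against 12.4% of all windows of the table and 20.2% of those of protein-coding genes at or below 0.5. It was in 4 of 7 Fpr, 5 of 11 Taar and 9 of 31 Tas2r windows, 1 of 17 Mrgpr windows and 0 of 3 Tas1r windows.

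The upstream stretches of 2 umami and sweet receptor genes, Tas1r1 (chr4:152038491-152038690, minus strand) and Tas1r3 (chr4:155863354-155863553, minus strand), are shown because these genes were the earliest members. They are 200 bases from the same RefSeq table, with CG in capitals.
Tas1r1: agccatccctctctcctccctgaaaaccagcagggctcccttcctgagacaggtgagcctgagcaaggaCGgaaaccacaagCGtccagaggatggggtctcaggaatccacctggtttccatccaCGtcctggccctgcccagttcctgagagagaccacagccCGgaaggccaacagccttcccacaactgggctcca
Tas1r3: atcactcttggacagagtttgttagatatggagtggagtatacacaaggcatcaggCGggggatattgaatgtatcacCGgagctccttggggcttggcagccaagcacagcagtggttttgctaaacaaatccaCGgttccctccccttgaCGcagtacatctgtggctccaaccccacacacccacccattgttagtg
Each held 4 CG dinucleotides, and G + C was 60.5% and 51.5%.

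**Figure D4:**
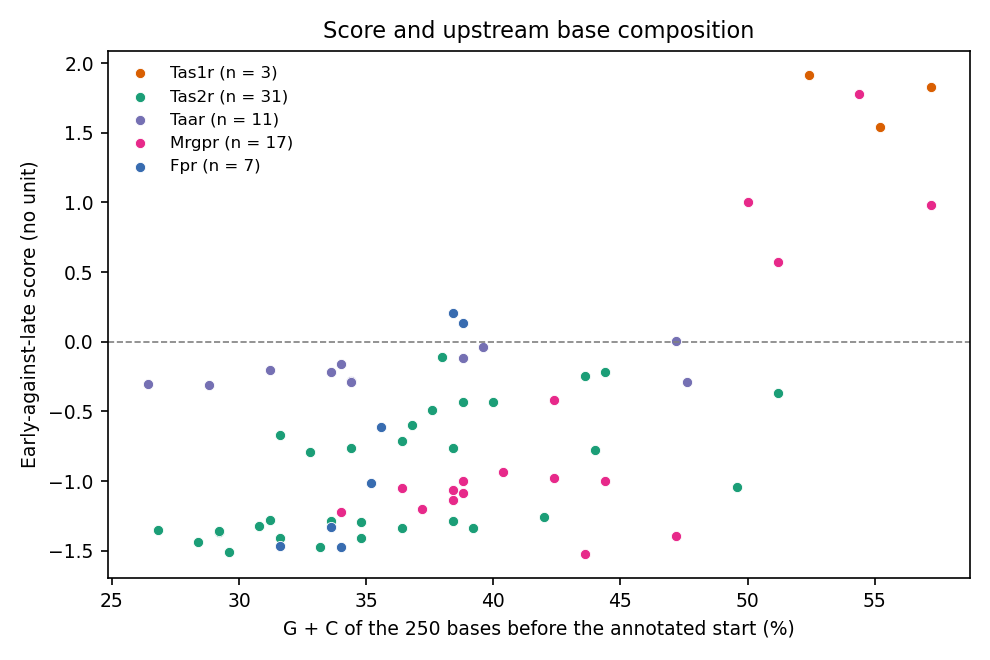
Early-against-late score (vertical axis, no unit) against the G + C of the 250 bases before the annotated start (horizontal axis, percent) for the 69 receptor genes with a RefSeq window. The 7 genes above 0.5 all have 50% G + C or more, and the genes below 0 lie almost wholly under 50%.

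The genes that act with these receptors were mostly early, as protein-coding genes are: 73.5% of all protein-coding genes lay above 0. Of 21 taste cell signalling genes with a value 18 lay above 0, with a median of 1.41, beside a Tas2r median of -1.29. The G protein gamma gene Gng13 (1.76) was the highest. The gene of the taste G protein gustducin, Gnat3, was the lowest at -0.57, followed by the receptor transport gene Rtp4 at -0.54. All 4 vomeronasal signalling genes lay above 0. The channel gene Trpc2 had 1.41, and the G protein genes Gnai2, Gng8 and Gnao1 had 1.41, 1.40 and 0.066. Of 13 genes of olfactory cilium signalling 10 lay above 0, the highest being Gng13 again and the adenylyl cyclase gene Adcy3 at 1.61. The lowest were the channel genes Cnga2, on chromosome X, at -1.07 and Ano2 at -0.86.

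The remaining partner lists were more divided for trace amines and itch. Among 9 genes of trace amine metabolism 6 lay above 0. The amine oxidase gene Aoc3 and the methyltransferase gene Pnmt had 1.89 and 1.86, and the monoamine oxidase gene Maob had -0.93. Of 22 itch and mast cell genes 14 lay above 0, with a median of 0.21. The lowest were the kappa opioid receptor gene Oprk1 at -1.61 and the sodium channel gene Scn9a at -1.33. The highest were the natriuretic peptide receptor gene Npr1 at 1.68 and the neuropeptide gene Npff at 1.67. Of 16 ligand and neutrophil genes of the Fpr pathway 14 lay above 0, with a median of 1.42, beside an Fpr median of -1.02. The oxidase subunit gene Ncf1 and the complement receptor gene C5ar1 had 1.78 and 1.61. The annexin gene Anxa1, whose product is a known Fpr ligand, had -1.22, and the kinase gene Pik3cg -0.95.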

How the data were processed

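Replication timing was measured in 1 early and 1 late S phase library of mouse 46C embryonic stem cells by BrdU immunoprecipitation, whole-genome amplification and Ion Torrent sequencing, per the labels' protocols. The submitters' processing notes name Bowtie2 and the build mm10. The authors joined both libraries into the deposited score, 1 value per position, smoothed over 300 kb according to the table's name. Counting, scaling, log base and zero point: not given in the sources used here. Of 384798 positions, 4 lacked a value and were dropped. Unused per-sample columns numbered 0.

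Gene models were those of RefSeq GRCm38.p6 (chromosomes as in mm10), less 348 scaffold entries. Each gene took the score nearest to its midpoint, within 100 kb (median distance for the members 1.45 kb). Members at most 1 Mb apart were joined into clusters. A run is a stretch of same-sign positions without a gap over 300 kb. The lookup, clusters and runs were tested on simulated data. Python 3.11.15, numpy 2.4.6, pandas 2.3.3 and scipy 1.17.1 were used. With 1 library per fraction no test was made. The members, lists and alternatives were chosen with earlier results of these data known. Named genes were the highest and lowest of each family and cluster, all Tas1r, Taar and Fpr genes, single members, members nearest to 0, receptors with well known ligands, and the extremes of the neighbour and partner lists; other neighbours were chosen after their values were seen. Of the partner genes Calhm3 is a pseudogene in this annotation and was not used. Some partner genes that the rule names are not given in the text. Protein identity was not computed, since no protein table was used here.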

Additional observations from a re-analysis of the deposited data

How the results depend on the processing

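Of 253 recomputed values over 66 results, 228 kept their sign and stayed within the stated spread (1 SD among members, or 1.5 times for counts and lengths), 17 moved further and 8 changed sign. The gene ends and the median within 150 kb changed no sign of a family or cluster. The 20 kb limit left out no member, as the farthest lay 18.4 kb from its position. Its values could not differ from the main ones, and they are counted among those that kept their sign. Leaving out the 3 members over 5 kb from their position could change only all members, the Mrgpr family and its tandem cluster. Leaving out values within 0.25 of 0 could change nothing for a family or cluster without such values. These unchanged values are counted in the 228 as well. Moving zero to the autosomal median (-0.30) shifts every score by the same amount, so it changes calls near 0. Taar genes below zero became 2 of 15 (family and cluster median 0.089) and Tas2r139 to Tas2r126 2 of 5 (median 0.062), and the median of Fpr1 to Fpr-rs4 became 0.066. The other medians became 2.14 for Tas1r, -0.13 for Tas2r137 to Tas2r138, -1.04 for Tas2r130 to Tas2r140, -0.74 for Mrgpra9 to Mrgprb3 and -1.16 for Fpr-rs7 to Fpr-rs3. With 1 value per cluster the Mrgpr median was 0.82 over 4 units, since the tandem cluster then counts once, and the Olfr median was -0.028 over 49 units. With values within 0.25 of 0 left out, 7 Taar and 5 Fpr genes remained, all below 0, and 2 of the cluster Tas2r139 to Tas2r126 (median -0.43). With means for medians the distal Tas2r cluster minus its higher-coordinate flank was 0.045. With flanks of 1 Mb, chosen after the data were seen, Taar minus its lower-coordinate flank was 0.90, as that flank then takes in late sequence (median -1.11); minus the other flank it was -0.74, Tas2r137 to Tas2r138 and the distal Tas2r cluster minus their lower-coordinate flanks were -0.53 and -0.75, and Fpr-rs7 to Fpr-rs3 minus its higher-coordinate flank was -0.92. The median of the other genes beside Fpr1 to Fpr-rs4 was 0.43 within 1 Mb, against -0.77 within 0.5 Mb, as 21 genes are then counted in place of 13. Also after the data were seen, leaving out the 3 members over 5 kb from their position (65 of 77 below 0) and adding the 19 pseudogenes (86 of 99 below 0) were tried. No paired analysis was possible because each fraction has 1 library and the score joins both. Depth is unknown and limits what can be said of single genes.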

Other observations

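Pseudogenes with the same family names were mostly late. Of 19 such pseudogenes 18 lay below 0, with a median of -1.01, against 26.5% of protein-coding genes below 0. Of the 5 Tas2r pseudogenes 4 lay within the second distal block of the bitter receptor genes and 1 just beyond its last gene, and they had scores between -1.40 and -1.32. The 12 Mrgpr pseudogenes, scattered through and beside the tandem cluster on chromosome 7, had a median of -0.93. The lowest was Mrgprb7-ps at -1.55, beside Mrgprx1. The one above 0 was Mrgpra6 (47185717 to 47189416) at 0.021, which lies outside the first intact gene, Mrgpra9, on the side of the early flank. Taar7c-ps had -0.23, between Taar7b (-0.22) and Taar7d (-0.28), and Fpr-rs5 had -0.76, between Fpr3 (-0.61) and Fpr-rs4 (-1.02). These scores are not separate measurements, since each lies within the smoothing width of intact members.

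The lowest score within 1 Mb of a cluster lay inside it for the Mrgpr tandem cluster (-1.55). For the distal Tas2r cluster the lowest score (-1.58, at 131945243) lay between its 2 blocks, in a stretch without a Tas2r gene. For the second Fpr cluster it lay 146 kb beyond Fpr-rs3, at -1.76, among Vmn1r genes such as Vmn1r228 (-1.76), and for Tas2r119 it lay 175 kb away at -1.76. The highest score within 1 Mb of Mrgprh, 1.85, lay 39.9 kb from it.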
